A study of Rattus norvegicus with 105 samples.

Results

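The genes described here encode machinery of the early secretory pathway. They were taken from the probe table by symbol: genes named Sec11, Sec13, Sec16, Sec22, Sec23, Sec24, Sec31, Sec61, Sec62 or Sec63, and those of the Srp, Srpr, Ssr, Spcs, Tram, Pdia, Cop (a, b, e, g and z), Tmed and Kdelr families. The rule found 60 of 22253 probes, for 59 of 20946 gene symbols, with a pair of probes for Tram2. The rule reads the symbol alone.

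RNA came from primary hepatocytes of female Sprague-Dawley rats, bought as 1 lot, plated on collagen and exposed for 24 hours. The assay was TempO-Seq, which ligates pairs of detector oligonucleotides on each transcript and counts the ligated products. Cells received 1 of 3 nitroalkanes, whose carbon chain grows by a single carbon from nitromethane (NM) through nitroethane (NE) to 1-nitropropane (1NP). Each was given at 8 concentrations, spaced about 3-fold apart from 0.003 to 10 mM. Set 1 held NM and NE, wells with medium only and wells with DMSO (the solvent control). It also held BAP (benzo[a]pyrene, an aryl hydrocarbon receptor agonist) at 50 µM and CITCO at doses of 10 µM or 20 µM. The other compounds of set 1 were the antibiotic rifampin at doses of 20 µM or 40 µM and the PPARα agonist WY-14643 at 50 µM. Set 2 held 1NP, its own medium and DMSO wells, and WY-14643, titled 50 µM but carrying 100 in its library names. There were 35 groups of 3 libraries, with 72 libraries in set 1 and 33 in set 2. The labels give the nitroalkane doses in µM in the titles and in mM in the protocol, and mM is used here. They title DMSO 0.5% where the protocol has 0.2%, name the panel as human although the symbols are rat symbols, and do not say whether nitroalkane wells held DMSO. Each group is therefore set against both medium and DMSO of its own set. With a single lot of cells, the wells are the replicates, and p-values say nothing of the spread between animals.

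Secreted and membrane proteins enter the endoplasmic reticulum (ER) when the signal recognition particle (SRP) docks a ribosome at the SRP receptor and the growing chain passes through the Sec61 channel. Signal peptidase then removes the signal sequence, and disulfide isomerases help the chain to fold. Folded cargo leaves in vesicles coated with COPII, while COPI vesicles, together with p24 proteins and KDEL receptors, carry escaped ER residents and membrane back from the Golgi. Hepatocytes depend on this route because they secrete most plasma proteins, and in many cell types its genes are known targets of the unfolded protein response, in which ATF6 and XBP1 raise the folding and transport capacity of the ER.

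Library totals ran from 5475419 to 11122665 counts, with a median of 8680678. Values are given as CPM, counts scaled to the total of their library, which compare a probe between libraries and not probes with each other, and 3 counts corresponded to 0.270 to 0.548 CPM. All 8 hepatocyte markers had counts in every library, with Alb between 1422 and 3975 CPM. Markers of other liver cells were low or at 0 for the Kupffer, endothelial, lymphocyte and erythroid lists, whose summed levels did not pass 17.98 CPM in any library. Of the stellate list, Reln was present in every library at 230.7 CPM or more, whereas Des, Pdgfrb and Col1a1 were at 0 in 103, 98 and 97 libraries. Of the cholangiocyte list, Sox9, Epcam, Krt19 and Spp1 were present in every library, whereas the Krt7 probes were at 0 in 63 and 56 libraries and Cftr in 49. In bulk RNA, fewer cells of a type and less RNA per cell cannot be told apart.

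Some libraries stood apart from their groups. The NE 10 mM library of replicate 2 had counts for 21627 probes against a median of 13792. Next came replicate 1 of NM at 1 mM (16558), replicate 3 of 1NP at 0.003 mM (16457) and replicate 3 of NE at 1 mM (16178). Replicate 3 of 1NP at 10 mM differed from its partners, and the counts and medians for 1NP at 10 mM are given with and without it. Replicate 3 of NM at 10 mM and replicate 1 of NM at 3 mM shared low values for several members, given with the NM results. On the plate each nitroalkane concentration was a row of wells, so concentration and row cannot be told apart. No nitroalkane shared its plate columns with another of its set or with the controls of its set, so compound and column cannot be told apart either.

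With 10 mM NE, transcripts of the secretory machinery were higher along most of the route. Against medium, 30 of 56 tested members were higher and 0 lower at an adjusted p under 0.05 (edgeR quasi-likelihood test, adjusted over all probes), beside 34.0% of all probes called and 16.6% called higher. The median log2 change of the tested members was 0.74, against 0.03 over all probes. Against DMSO, 21 of 56 were higher and 0 lower, beside 28.9% of all probes called and 13.3% called higher, with a median of 0.43. The members took up 1.04 to 1.23% of all counts in the 3 NE 10 mM libraries, 0.620 to 0.655% in medium and 0.714 to 0.729% in DMSO. The 4 members not tested, Tmed11, Tmed6, Sec61a2 and Sec62, had too few counts in this fit. Of the 45 tested members with a mean of at least 10 CPM, 28 were called and 43 had a log2 change above 0. Of the 11 with a lower mean, 2 were called, Pdia5 and Srp54a. Summed cholangiocyte markers moved in the same wells, at 224.1 to 287.4 CPM with 10 mM NE and 627.2 to 736.8 CPM in medium. Here and below that sum is mostly Sox9 and then Epcam (medians of 437.2 and 184.6 CPM over all libraries). Summed stellate markers, nearly all Reln, stood at 241.5 to 305.6 CPM with 10 mM NE and 333.5 to 381.4 CPM in medium. Summed hepatocyte markers were lower as well, at 5732 to 7755 CPM against 8121 to 10050 in medium. The part of these lists in the change of the members was not tested.

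**Figure D1:**
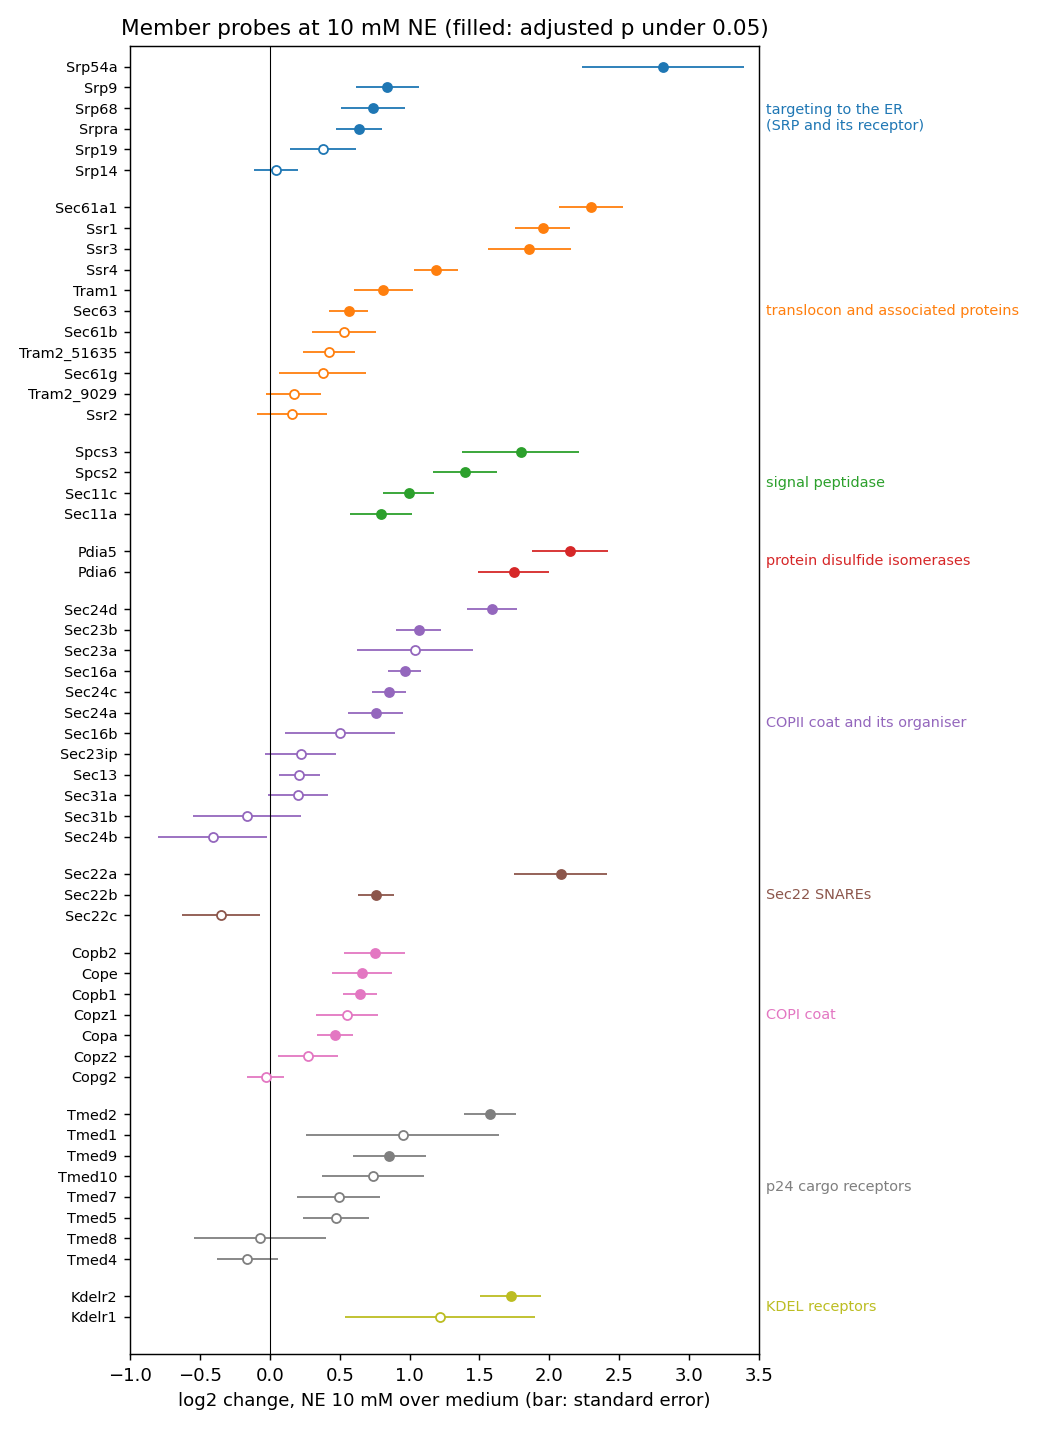
Log2 change of each tested member probe between 10 mM NE and medium (x axis), with its standard error as a bar, grouped by role (y axis, colours). Filled points passed an adjusted p under 0.05. Tram1l1, with about 0.5 CPM in both groups and a standard error of 1.11, is not drawn. All 30 filled points lie to the right of 0.

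Among the genes that bring ribosomes to the ER, 4 of 6 rose at 10 mM NE against medium. This count and those of the other roles against medium stand beside 16.6% of all probes called higher. Srp9, a protein of the Alu domain of SRP, had a mean of 136.3 ± 17.3 CPM (SD, n = 3) with NE and 76.8 ± 8.70 CPM in medium, a log2 change of 0.84 ± 0.22 (SE, edgeR adjusted p = 0.0045). Srpra, the receptor subunit that binds SRP, stood at 305.3, 297.2 and 343.0 CPM with NE and at 198.3, 209.6 and 201.6 CPM in medium, and the groups did not overlap. Srp68, an SRP subunit, also rose, by 0.74 ± 0.23. Srp54a, the GTPase subunit that reads the signal sequence, rose from a mean of 1.68 CPM in medium, a log2 change of 2.82 ± 0.58 on few counts. Srp14, the partner of Srp9 and the probe with the most counts in this group, did not pass the test, at 0.04 ± 0.16. Srp19 was at 0.38 ± 0.24 and did not pass either.

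Sec61a1, the pore-forming subunit of the translocation channel, had the largest rise of the called members with a mean of at least 10 CPM. It stood at 69.6, 64.4 and 80.9 CPM with 10 mM NE, at 14.38, 16.54 and 12.98 CPM in medium and at 28.3, 22.5 and 24.3 CPM in DMSO. Every NE library was above every control library, and the log2 change against medium was 2.30 ± 0.23 (edgeR adjusted p = 1.36e-08), or 1.47 ± 0.22 against DMSO. The small subunits of the channel did not pass the test at this dose, with log2 changes of 0.53 ± 0.23 for Sec61b and 0.38 ± 0.31 for Sec61g. The TRAP complex, which sits beside the channel and aids the entry of many signal sequences, rose in 3 of its 4 subunits. Ssr1 rose by 1.95 ± 0.20, Ssr3 by 1.86 ± 0.30 and Ssr4 by 1.19 ± 0.16, whereas Ssr2 was at 0.16 ± 0.25 and did not pass. Ssr4, the probe with the most counts here, stood at 2266, 1771 and 2096 CPM with NE and at 919.7, 946.5 and 850.4 CPM in medium. Tram1, a membrane protein that contacts chains entering the ER, rose by 0.81 ± 0.21, and neither Tram2 probe passed, at 0.42 ± 0.19 and 0.17 ± 0.19. Sec63, which couples the channel to the chaperone BiP, rose by 0.56 ± 0.14. In all, 6 of 12 tested translocon members rose.

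All 4 signal peptidase probes rose at 10 mM NE, against both controls. The catalytic subunits Sec11a and Sec11c rose by 0.80 ± 0.22 and 0.99 ± 0.18 against medium, and the accessory subunits Spcs2 and Spcs3 by 1.40 ± 0.23 and 1.80 ± 0.42. Spcs2 stood at 144.0, 130.8 and 147.6 CPM with NE and at 52.8, 56.5 and 51.9 CPM in medium. Both disulfide isomerase probes rose too. Pdia6 (P5), which works beside BiP, stood at 355.1, 300.3 and 453.4 CPM with NE and at 121.4, 121.0 and 91.8 CPM in medium, a log2 change of 1.75 ± 0.26 (edgeR adjusted p = 5.74e-06). Pdia5 rose from 3.60 to 16.3 CPM, by 2.15 ± 0.27.

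Of 12 probes for the COPII coat and its organisers, 5 rose at 10 mM NE against medium. Sec24d, a cargo-binding subunit, stood at 430.1, 399.1 and 403.2 CPM with NE and at 147.1, 132.5 and 130.4 CPM in medium, a log2 change of 1.59 ± 0.18 (edgeR adjusted p = 1.14e-07). Its paralogues differed in their values, with rises of 0.85 ± 0.12 for Sec24c and 0.76 ± 0.20 for Sec24a, and -0.41 ± 0.39 for Sec24b, which did not pass and lay near 6 CPM. The differences between paralogues were not tested. Sec23b, the inner-coat partner of Sec24, rose by 1.07 ± 0.16, and Sec16a, which organises ER exit sites, by 0.96 ± 0.12. The outer coat did not pass the test, with Sec13 at 0.21 ± 0.15, Sec31a at 0.20 ± 0.22 and Sec31b at -0.17 ± 0.39. Of the Sec22 proteins, vesicle SNAREs or their relatives, Sec22b rose by 0.76 ± 0.13 and Sec22a by 2.08 ± 0.33, from 7.14 to 30.6 CPM, while Sec22c was at -0.35 ± 0.28.

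Of 7 COPI probes, 4 rose at 10 mM NE, all by less than a doubling. Copb1 stood at 596.2, 528.9 and 611.6 CPM with NE and at 369.0, 374.1 and 372.9 CPM in medium, a log2 change of 0.65 ± 0.12 (edgeR adjusted p = 0.000131). Copa rose by 0.47 ± 0.13, Copb2 by 0.75 ± 0.22 and Cope by 0.66 ± 0.21, all of them subunits of the coat. Copg2 was at -0.03 ± 0.13. Among the p24 proteins, which select cargo and help to form vesicles, 2 of 8 tested probes rose, beside 16.6% of all probes. Tmed2 stood at 403.6, 330.5 and 348.2 CPM with NE and at 138.4, 114.5 and 111.7 CPM in medium, a rise of 1.58 ± 0.19, and Tmed9 rose by 0.86 ± 0.26. Tmed5, Tmed7 and Tmed4, each above 30 CPM, did not pass, at 0.47 ± 0.23, 0.49 ± 0.30 and -0.16 ± 0.22. Kdelr2, a receptor that returns chaperones with a KDEL tail to the ER, stood at 559.6, 539.4 and 509.8 CPM with NE, at 164.3, 167.6 and 155.6 CPM in medium and at 213.5, 200.7 and 203.0 CPM in DMSO. Its log2 change was 1.72 ± 0.22 against medium (edgeR adjusted p = 6.32e-07) and 1.33 ± 0.21 against DMSO. Kdelr1 was at 1.22 ± 0.68 on under 4 CPM and did not pass.

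Promoter sequences were found in RefSeq (GRCr8) for 51 of the 59 symbols, as windows from 250 bases before to 50 bases after the start of the gene. No window was found for Sec61a1, Pdia6, Kdelr2, Sec24d, Sec24c and Tram1, all higher at 10 mM NE, or for Sec61a2 and Tmed11. These genes were not searched, so the counts of motifs say nothing of them. They were searched on both strands for letters bound by factors of the unfolded protein response. The motif TGACGTGG, the core of the UPRE bound by XBP1 and ATF6, stood in 5 of 51 member windows (9.80%), in Copa, Copb1, Copb2, Sec23a and Srp19, and in 0.595% of 33469 windows of all genes. The letters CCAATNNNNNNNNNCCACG of the ERSE stood in 0 member windows and in 0.0657% of all, and those of the ERSE-II in 0 and in 0.0508%. The cyclic AMP response element TGACGTCA, which shares its first letters with the UPRE but cannot overlap it at the same start, stood in 1 member window, that of Cope, and in 1.83% of all. A match is a run of letters and not a measured site. Of the 5 genes with the motif, Copa, Copb1 and Copb2 passed the test at 10 mM NE, while Sec23a (1.04 ± 0.41) and Srp19 did not. Beside these 3 of 5 stand 30 of 56 tested members and 16.6% of all probes called higher against medium. Ssr1, Ssr3, Spcs3 and Tmed2 rose by more than the 3 coat genes, and their windows held none of the motifs. A link of motif and rise was not tested. Windows of 4 of the 5 genes are shown because the 3 coat genes rose together and Sec23a belongs to the other coat. Each is written 5′ to 3′ on the strand of the gene, and capitals mark the motif or its reverse complement. Copa lies on the plus strand at chr13:87078618-87078917, Copb1 on the minus strand at chr1:177872791-177873090, Copb2 on the plus strand at chr8:108040437-108040736 and Sec23a on the minus strand at chr6:82440855-82441154. From the start of the gene the motif begins at +31 in Copa, -6 in Copb1, -10 in Copb2 and -91 in Sec23a.
Copa: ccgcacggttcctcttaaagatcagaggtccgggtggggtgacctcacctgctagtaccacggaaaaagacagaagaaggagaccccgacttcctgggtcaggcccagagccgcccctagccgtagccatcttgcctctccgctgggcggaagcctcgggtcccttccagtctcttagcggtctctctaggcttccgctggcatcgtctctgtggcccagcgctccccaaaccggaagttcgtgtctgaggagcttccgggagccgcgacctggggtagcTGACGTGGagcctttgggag
Copb1: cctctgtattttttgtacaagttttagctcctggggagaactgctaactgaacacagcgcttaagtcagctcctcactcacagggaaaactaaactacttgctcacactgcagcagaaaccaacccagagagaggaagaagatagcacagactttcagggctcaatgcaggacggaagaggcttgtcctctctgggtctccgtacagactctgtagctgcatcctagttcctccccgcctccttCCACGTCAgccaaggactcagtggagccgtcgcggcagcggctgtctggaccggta
Copb2: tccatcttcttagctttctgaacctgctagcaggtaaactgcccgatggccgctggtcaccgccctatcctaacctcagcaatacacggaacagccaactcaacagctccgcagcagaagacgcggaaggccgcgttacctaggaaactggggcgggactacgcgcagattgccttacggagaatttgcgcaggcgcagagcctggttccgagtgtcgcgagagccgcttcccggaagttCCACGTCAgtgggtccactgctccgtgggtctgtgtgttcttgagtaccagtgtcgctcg
Sec23a: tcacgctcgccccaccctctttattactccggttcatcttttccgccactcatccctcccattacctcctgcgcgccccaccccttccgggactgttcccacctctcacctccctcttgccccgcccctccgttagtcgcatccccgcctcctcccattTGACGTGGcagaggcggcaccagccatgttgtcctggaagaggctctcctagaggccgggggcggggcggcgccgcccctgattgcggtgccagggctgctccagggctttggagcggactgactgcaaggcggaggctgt

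Other genes of the pathway, from lists outside the naming rule, moved in the same wells. Of 19 ER chaperone and unfolded protein response probes, 17 were higher and 0 lower at 10 mM NE against medium, with a median log2 change of 1.81. Hspa5 (BiP), the main ER chaperone, rose from 15.8 to 300.9 CPM, a log2 change of 4.24 ± 0.29, and Hsp90b1 (GRP94) rose by 3.35 ± 0.16. Of 10 oligosaccharyl transferase probes 8 were higher, of 12 for ER-associated degradation 9 were higher, and of 25 tested probes for ER to Golgi transport outside the rule 15 were higher and 1 lower. Among transcription factors of the pathway, 3 were higher and 2 lower of 8. Atf6 rose by 1.81 ± 0.20 and Creb3l2 by 1.52 ± 0.21, while Atf4 fell by 0.53 on the log2 scale. The cargo had another balance of calls: of 21 probes for proteins that hepatocytes secrete, 4 were higher and 7 lower against medium. Of all probes, 16.6% were higher and 17.4% lower. The counts against DMSO were 0 higher and 16 lower, beside 13.3% and 15.6% of all probes. These probes were mostly lower in medium than in DMSO too, as given with the controls. Their summed level was 16700 to 22050 CPM with 10 mM NE, 17750 to 23790 in medium and 40490 to 46220 in DMSO.

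Higher calls with NE came at 3 and 10 mM. At 3 mM, 22 of 56 members were higher and 0 lower against medium, beside 11.5% of all probes called and 6.15% called higher, with a median log2 change of 0.57. Against DMSO 11 were higher and 0 lower, beside 6.08% called and 3.06% called higher. Leaving out 1 library lowered the count against DMSO to between 3 and 7, for each of the 6 libraries of the comparison, and leaving out replicate 3 of medium lowered that against medium to 14. Summed cholangiocyte markers were low at 3 mM too, at 316.4 to 361.3 CPM, while summed hepatocyte markers stood at 10330 to 13960 CPM, above medium and unlike at 10 mM. Their part in the result was not tested. At 1 mM, 0 members were called against medium by edgeR, beside 0.219% of all probes, with 5 at an unadjusted p under 0.05 and a median of 0.12. Over all 7 concentrations under 10 mM, 22 of 392 tests of members against medium were called, beside 1.69% of the tests of all probes, and every one of the 22 came from 3 mM.

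At 3 mM, 7 of 12 translocon probes were higher against medium, beside 22 of 56 members and 6.15% of all probes. Sec61g, not called at 10 mM, stood at 388.4, 367.7 and 371.1 CPM with 3 mM NE and at 185.0, 200.9 and 183.2 CPM in medium, a log2 change of 1.06 ± 0.31 (edgeR adjusted p = 0.0261). That call was lost when any 1 of the 6 libraries was left out. Sec61b was also called at 3 mM, at 1.02 ± 0.23, and Sec61a1 stood at 34.24, 23.95 and 15.41 CPM, a change of 0.82 ± 0.23 with overlapping groups. Srpra rose by 1.01 ± 0.17 and Tmed9 by 1.22 ± 0.26. Tmed2, raised at 10 mM, stood at 193.5, 165.6 and 102.4 CPM with 3 mM NE and did not pass, at 0.42 ± 0.18. Pdia6 and Kdelr2 rose at both doses, with changes at 3 mM of 1.25 ± 0.25 and 1.14 ± 0.21. The changes at 3 and 10 mM were not tested against each other. Of 21 probes for secreted proteins, 8 were higher and 2 lower at 3 mM against medium, beside 6.15% and 5.38% of all probes. The counts against DMSO were 0 higher and 9 lower, beside 3.06% and 3.03% of all probes.

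**Figure D2:**
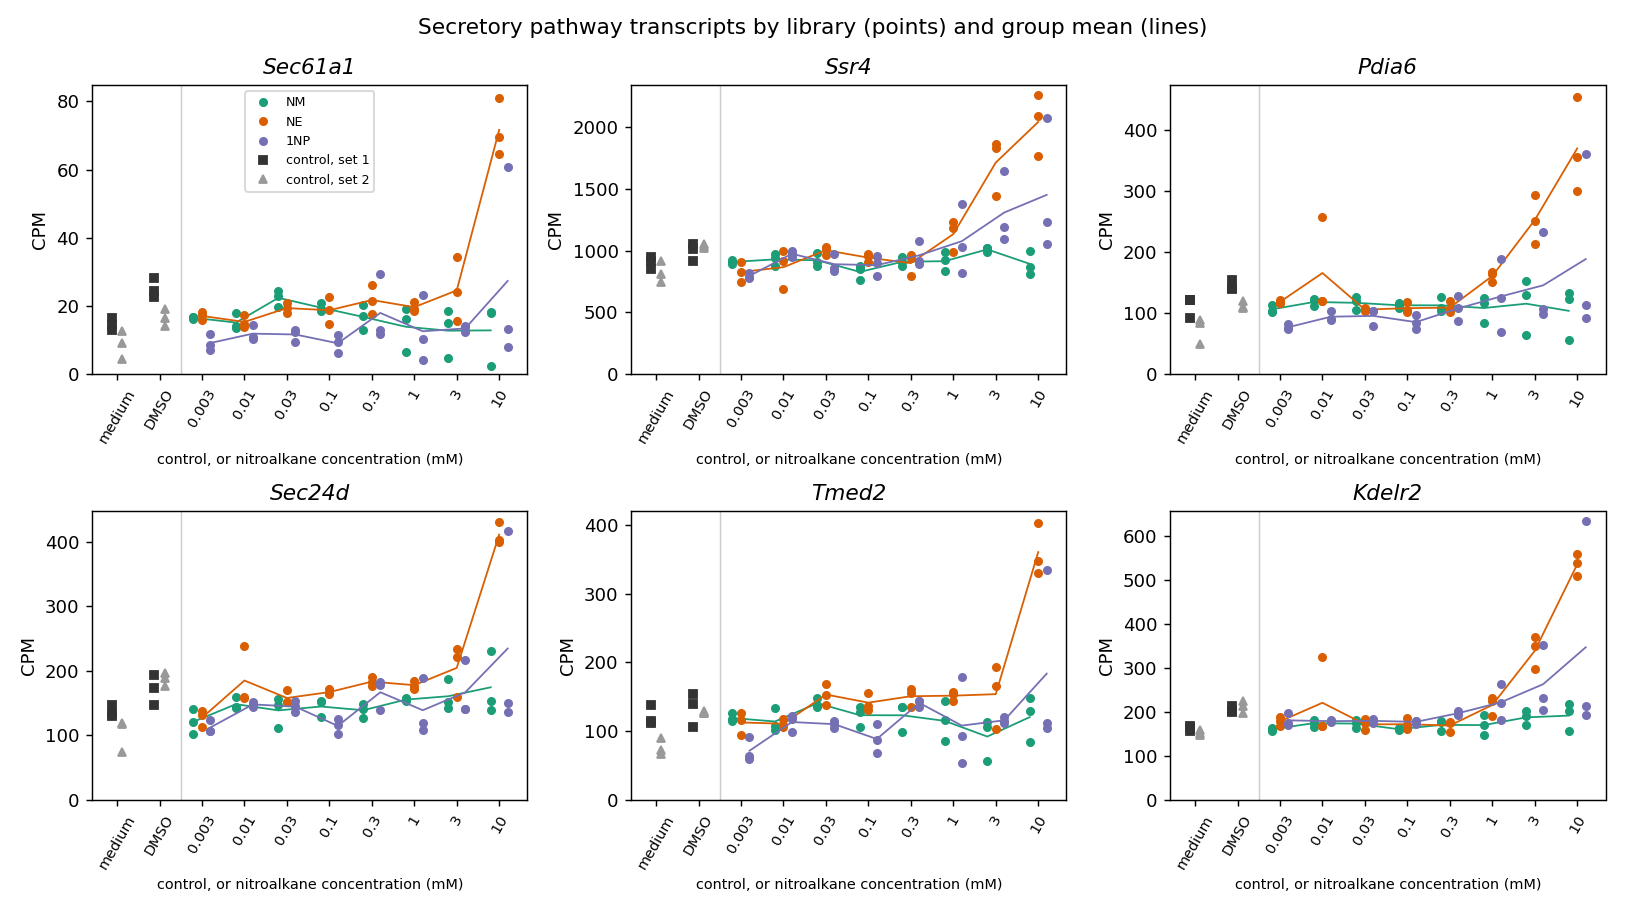
Level in CPM (y axes, from 0) of 6 members in each library, for medium and DMSO of both sets and for 8 concentrations of NM, NE and 1NP in mM (x axes). Points are libraries and lines join group means. With 10 mM NE all 3 libraries lie above every control in each panel, and at 10 mM 1NP a single library does, except in the Ssr4 panel, where 2 do.

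NM at the same concentrations left the members close to medium. At 10 mM, 0 of 55 tested members were called against medium by edgeR, beside 0.662% of all probes, with 6 at an unadjusted p under 0.05 and 3 called by DESeq2. The median log2 change was -0.01. Kdelr2 stood at 217.2, 201.6 and 156.3 CPM with 10 mM NM, a change of 0.20 with an interval of -0.06 to 0.45, and Ssr4 at 997.6, 868.5 and 814.4 CPM, a change of -0.07 with an interval of -0.27 to 0.14 (95% intervals). Replicate 3 was low for Sec61a1 (2.34 CPM against 18.1 and 18.0), Sec61g (23.4 against 191.6 and 169.6), Ssr3 (8.98 against 46.1 and 43.6) and Spcs2 (18.4 against 59.9 and 50.1), and high for Tram2. At 3 mM, Copb2, Sec16a and Srpra were higher against medium, 3 of 55 beside 2.32% of all probes, with log2 changes of 0.58 ± 0.15, 0.44 ± 0.12 and 0.41 ± 0.08, and 1 or 2 were called when a library was left out. Summed hepatocyte markers stood at 13470 to 14910 CPM with 3 mM NM and 8121 to 10050 in medium, and their part was not tested. Against DMSO, Tram1 and Srpra fell at 10 mM, by 0.49 and 0.39 on the log2 scale, 2 of 55 beside 7.19% of all probes.

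Set against each other in 1 fit, NE and NM differed. NM wells lay in plate columns 4 to 6 and NE wells in columns 7 to 9, so compound and column cannot be told apart. At 10 mM, 16 of 55 tested members were higher with NE and 0 lower, beside 11.7% of all probes called and 5.47% called higher with NE, and the median difference was 0.78. Summed cholangiocyte markers stood at 224.1 to 287.4 CPM with NE and 829.1 to 1221 CPM with NM, and their part in the difference was not tested. Kdelr2 was higher by 1.53 ± 0.21 (edgeR adjusted p = 0.00343), Ssr1 by 1.37 ± 0.18, Tmed2 by 1.64 ± 0.27, Pdia6 by 1.89 ± 0.37 and Sec61a1 by 2.52 ± 0.62, all with groups that did not overlap. The call of Kdelr2 held in all 10 alternatives run, while that of Sec61a1 was lost in 7 of 10, among them the replicate block and the fit without a filter on low counts. The count depended on single libraries: it was 2 without replicate 1 of NE, 3 without its replicate 3, and 9 and 6 without replicates 1 and 2 of NM, and 9 with the replicate block. Kdelr2 and Ssr1 were also higher in NE at 3 mM by value, but there 0 of 54 members were called by edgeR, beside 0.0179% of all probes, with 19 at an unadjusted p under 0.05 and 2 called by DESeq2. Without replicate 1 of NM at 3 mM, 7 were called. For Kdelr2 the difference at 3 mM was 0.91 with an interval of 0.56 to 1.25, and for Ssr4 0.82 with an interval of 0.52 to 1.11.

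**Figure D3:**
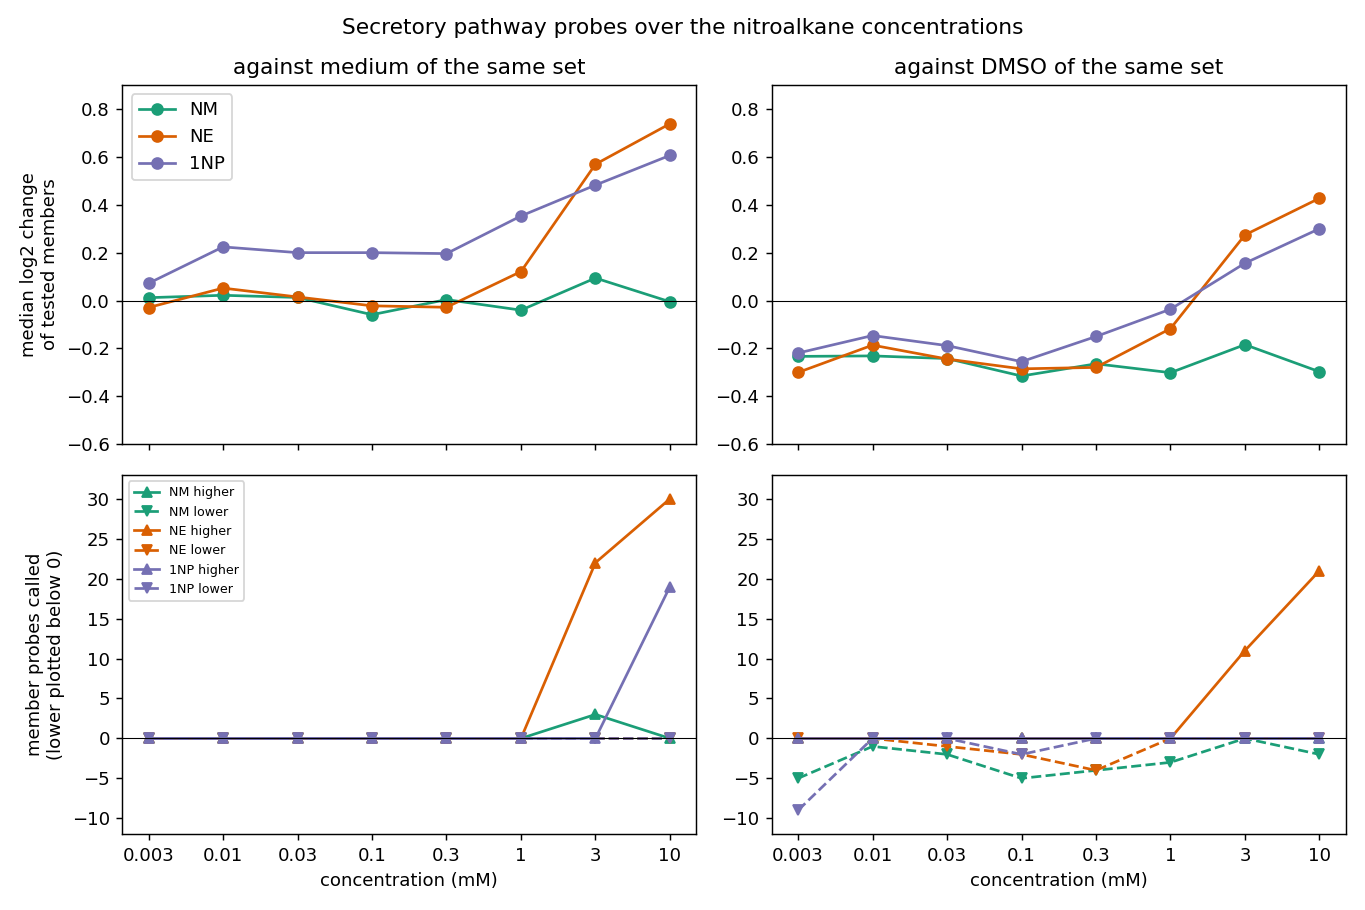
Median log2 change of the tested members (upper panels) and number of members called at an adjusted p under 0.05 (lower panels, lower calls plotted below 0) at each concentration in mM, against medium (left) and DMSO (right), for NM, NE and 1NP. Calls against medium with NE go from 0 at 1 mM to 22 at 3 mM and 30 at 10 mM.

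With 10 mM 1NP, 19 of 56 members were higher and 0 lower against medium of set 2, beside 10.2% of all probes called and 6.81% called higher, and the median log2 change was 0.61. One library carried this count. Kdelr2 stood at 193.6, 214.1 and 634.1 CPM in replicates 1, 2 and 3, Pdia6 at 91.6, 113.2 and 360.1, Sec61a1 at 7.83, 13.3 and 60.8, and Sec24d at 135.9, 150.6 and 416.6. The medium of set 2 had 158.1, 151.7 and 147.0 CPM of Kdelr2 and the DMSO 214.5, 198.7 and 224.2. Of the 43 members with a mean of at least 10 CPM over all libraries, all 43 were highest in replicate 3. In that library 40 of the 43 were at or above the lowest NE 10 mM library, against 7 and 8 in the other replicates. These counts were not made over all probes, so they do not show that the members differ from other probes. The summed ER chaperone list was also high in replicate 3, at 16680 CPM against 3346 to 3696 in its partners and 14230 to 16850 with 10 mM NE. The summed cholangiocyte list was low there, at 250.4 CPM against 755.3 and 759.2, and the part of it in the result was not tested. Its total of 8534350 counts and its 13757 probes with a count were within the range of the other libraries.

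Without replicate 3 of 1NP at 10 mM, 1 member was called against medium and the median fell to 0.23. Without replicate 5 of the set 2 medium, 0 were called although the median stayed at 0.56, and without its replicate 6, 12 were called. Against DMSO, 0 of 56 members were called at 10 mM by edgeR, beside 2.17% of all probes, with 7 at an unadjusted p under 0.05 and 1 called by DESeq2. The median of 0.30 against DMSO became -0.11 without replicate 3, with 1 member called, lower. At 3 and 1 mM, 0 were called against medium by edgeR, beside 0.223% and 0.0660% of all probes, with 27 and 13 at an unadjusted p under 0.05. Replicate 3 was the highest library for 37 of the 43 members at 3 mM and for 28 at 1 mM, again not counted over all probes. Kdelr2, for example, stood there at 353.7 CPM against 205.2 and 231.4 at 3 mM. The other 1NP concentrations had wells of replicate 3 in the same plate column.

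**Figure D4:**
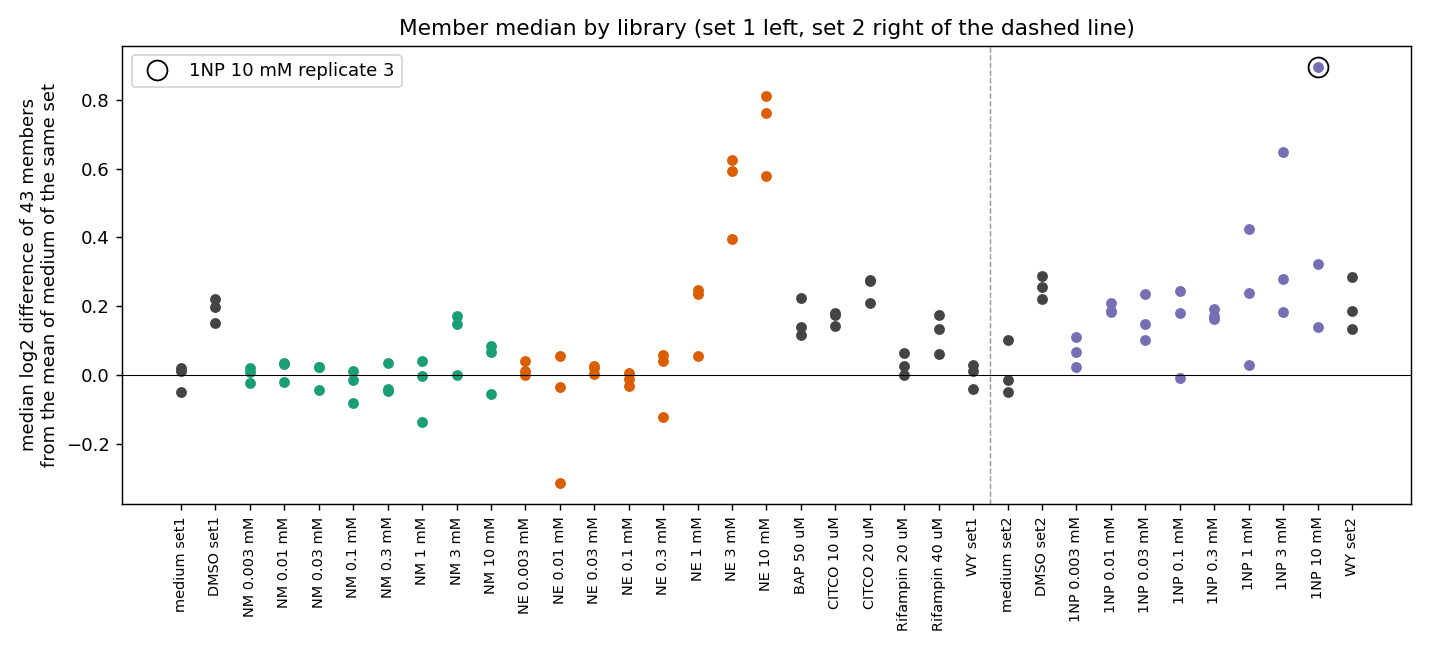
For each library (points), the median over 43 members of the log2 difference in CPM + 1 from the mean of medium of its own set (y axis), by group (x axis). The ringed library, replicate 3 of 1NP at 10 mM, lies at 0.90, its partners at 0.14 and 0.32, and the NE 10 mM libraries at 0.58 to 0.81.

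The effect of 1NP was compared with those of NM and NE at 10 mM, each against medium of its own set. No member was called in either comparison by edgeR, where 0% of all probes were called too, with 9 members at an unadjusted p under 0.05 for 1NP less NM and 1 for 1NP less NE, and 0 called by DESeq2 in either. The median difference was 0.61 from NM and -0.18 from NE. The intervals were wide: for Kdelr2 the difference from NE was -0.44 with a 95% interval of -1.44 to 0.56, and from NM 1.07 with an interval of 0.05 to 2.10. They use the normal quantile, which makes them too narrow for so few libraries, and neither difference was called. Without replicate 3 of 1NP, 11 members were lower with 1NP than with NE, the median difference was -0.58 and that of Kdelr2 was -1.27. Without it 0 members were called against NM, the median difference from NM was 0.27 and that of Kdelr2 was 0.25. The sets were run apart, so compound and set cannot be told apart in these differences.

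Members also differed between the controls. In set 1, 8 of 55 members were lower in medium than in DMSO and 0 higher, beside 7.06% of all probes called and 3.88% called lower. Ssr1 stood at 23.2, 28.9 and 25.1 CPM in medium and at 47.6, 44.6 and 40.8 CPM in DMSO, and fell by 0.83 ± 0.14 on the log2 scale. Sec61a1 fell by 0.82 ± 0.17, Pdia6 by 0.42 ± 0.10 and Kdelr2 by 0.38 ± 0.08. In set 2, 21 were lower and 2 higher, beside 24.0% of all probes called and 12.4% called lower. There Sec22a fell by 1.63 ± 0.33, Ssr3 by 1.13 ± 0.20, Tmed5 by 1.00 ± 0.17, Sec24d by 0.95 ± 0.16 and Tmed2 by 0.84 ± 0.13. The count of 23 in set 2 went to 13, 15 and 14 without DMSO replicates 4, 5 and 6, and to 13 without medium replicate 5. The secreted proteins were lower in medium in both sets, 18 of 21 and 19 of 21. Summed hepatocyte markers were lower in medium as well, at 8121 to 10050 against 12960 to 13820 CPM in set 1 and 8211 to 11550 against 12520 to 13790 CPM in set 2, and their part in the result was not tested. Medium and DMSO wells lay in different plate rows, so vehicle and row cannot be told apart. The 2 sets were tested against each other for this difference, and 1 member of 55 was called, beside 1.03% of all probes. It was Sec31b, at 3.84, 5.23 and 3.05 CPM in medium and 1.08, 1.12 and 1.03 CPM in DMSO of set 2, and at 1.51, 1.88 and 1.94 CPM in medium and 2.72, 2.42 and 2.57 CPM in DMSO of set 1.

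At lower doses, calls of members against DMSO were falls, apart from NE at 3 mM. Over the 7 concentrations under 10 mM, 20 of 385 tests of members with NM were called against DMSO, all lower, beside 2.08% of the tests of all probes. With NE 7 were lower and 11 higher of 392, beside 3.71%, and with 1NP 11 were lower of 392, beside 4.22%. These sums rested on single control wells: without DMSO replicates 1, 2 and 3 the 20 for NM became 7, 4 and 14 and the 18 for NE became 6, 4 and 5, and without DMSO replicates 4, 5 and 6 the 11 for 1NP became 6, 5 and 5. Without a filter on low counts the 20 for NM became 2. Of the 11, 9 came from 0.003 mM 1NP, where 20.0% of all probes were called, led by Sec22a at a fall of 1.57 ± 0.52 and Spcs3 at a fall of 1.48 ± 0.33. Replicate 3 of 0.003 mM 1NP had counts for 16457 probes, against 13570 and 13669 in its partners. Against medium the same sums were 3 of 385 for NM, beside 0.333% of the tests of all probes, and 0 of 392 by edgeR for 1NP, beside 0.0718%. The 3 for NM became 1 without any 1 of the medium wells. For 1NP, DESeq2 called 7, the fit without a filter on low counts 47, and edgeR 11 without medium replicate 6. These comparisons share their control wells with each other and with the comparison of medium and DMSO.

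For the reference compounds, the calls depended on the control. Where their wells held DMSO, compound and solvent cannot be told apart in the counts against medium. Ssr1, Sec61a1, Pdia6 and Kdelr2 were lower in medium than in DMSO of set 1, as given with the controls. BAP had 2 of 55 members lower and 0 higher against DMSO, beside 9.17% of all probes, and 11 higher and 1 lower against medium, beside 19.7% called and 9.30% called higher. Without BAP replicate 2, 7 were called against medium. Summed cholangiocyte markers were low in the BAP wells, at 382.9 to 431.3 CPM against 545.1 to 624.4 in DMSO and 627.2 to 736.8 in medium, and their part was not tested. Summed hepatocyte markers were 10260 to 11140 CPM with BAP, and 10720 to 11380 and 11260 to 13000 with CITCO at 10 and 20 µM. Medium had 8121 to 10050 and DMSO 12960 to 13820, and both rifampin groups overlapped medium. The part of these markers was not tested either. With BAP, Sec61a1 stood at 33.01, 32.82 and 27.57 CPM, above medium by 1.07 ± 0.16. Tram2 fell by 0.55 ± 0.14 against DMSO in 1 of its probes. CITCO at 20 µM had 0 of 55 called against DMSO by edgeR, beside 0.843%, and 16 higher and 1 lower against medium, beside 14.7% called and 7.33% called higher. Ssr1 led these, at 57.7, 51.9 and 52.1 CPM, above medium by 1.08 ± 0.14, and Sec61a1, Sec16a and Kdelr2 followed at 0.65, 0.64 and 0.58. CITCO at 10 µM had 0 called against DMSO by edgeR, beside 0.149%, and 4 higher against medium, beside 2.58%. Those 4 became 2 or 3 when 1 library was left out. Rifampin at 20 µM had 3 lower against DMSO (Ssr1, Srpra and Tram1), beside 2.87%. That count was 6 by DESeq2 and with the replicate block, 1 without DMSO replicate 1 or 2 or rifampin replicate 1 or 3, and 2 without DMSO replicate 3. Against medium it had 0 by edgeR, beside 0.273%, and 1 by DESeq2. At 40 µM it had 0 against DMSO by edgeR, beside 1.69%, where DESeq2 called 2, the fit without a filter on low counts 5 and the replicate block 1. Against medium it had 2 higher and 1 lower, beside 3.31%, with 5 called by DESeq2 and 1 without rifampin replicate 2 or medium replicate 1. For CITCO against DMSO, 1 member at 10 µM and 8 at 20 µM had an unadjusted p under 0.05, with 0 called by DESeq2 at either dose. For rifampin, 3 had one at 20 µM against medium and 14 at 40 µM against DMSO. CITCO at 20 µM and rifampin at 40 µM lay in other plate columns than their lower doses and the controls. Every reference group lay in another plate row than medium and DMSO. Dose or compound and plate position therefore cannot be told apart.

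WY-14643 in set 1 had the most members called among the reference compounds against DMSO, with 15 of 55 members lower and 0 higher, beside 4.88% of all probes called and 2.54% called lower. Sec61a1 stood at 19.4, 16.6 and 16.7 CPM against 28.3, 22.5 and 24.3 in DMSO, a fall of 0.63 ± 0.16. Pdia6 fell by 0.57 ± 0.10, Tram1 by 0.46 ± 0.07 and Kdelr2 by 0.42 ± 0.08. Summed hepatocyte markers stood at 8522 to 10010 CPM against 12960 to 13820 in DMSO, and their part was not tested. Against medium only Sec11c was called, lower by 0.49 ± 0.10, beside 5.80% of all probes, while a fit with the replicate number as a block called 2, and 7 were called without WY-14643 replicate 3. The count against DMSO went to 5 and 7 without DMSO replicates 1 and 2, and to 6 and 3 without WY-14643 replicates 1 and 2. In set 2, WY-14643 had 0 of 55 called against DMSO by edgeR, beside 0.901%, with 4 at an unadjusted p under 0.05 and 0 called by DESeq2, and 10 higher and 2 lower against medium, beside 16.9%. Those 12 became 5 and 7 without WY-14643 replicates 4 and 5, and 23 without medium replicate 6. Sec11c was lower than medium in 4 of the 6 reference groups of set 1, in BAP, CITCO at 20 µM, rifampin at 40 µM and WY-14643, by 0.30 to 0.49 on the log2 scale, and these comparisons share the same medium wells.

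**Figure D5:**
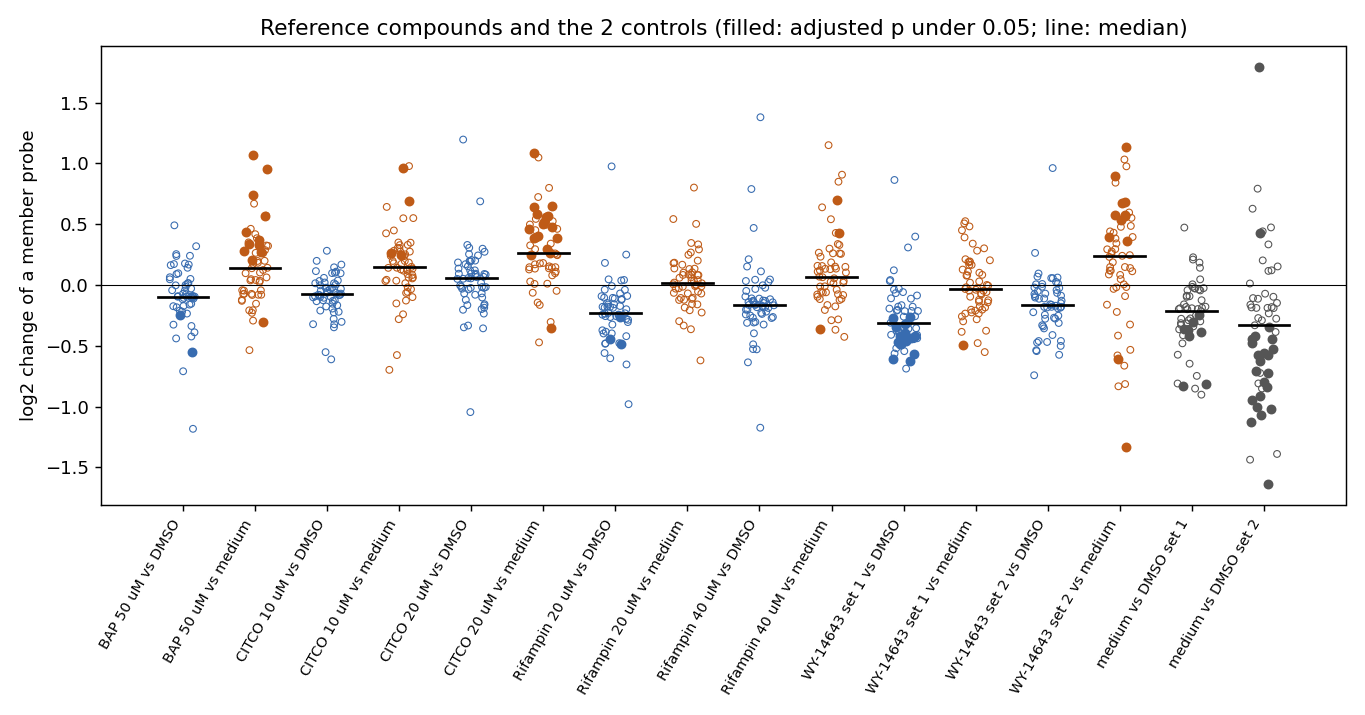
Log2 change of each tested member probe (points, y axis) for the reference compounds against DMSO (blue) and medium (orange), and for medium against DMSO in each set (grey), by comparison (x axis). Filled points passed an adjusted p under 0.05 and the black line is the median. For the reference compounds the medians against DMSO lie between -0.31 and 0.06 and those against medium between -0.03 and 0.26. For medium against DMSO they are -0.215 in set 1 and -0.331 in set 2.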

How the data were processed

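The authors deposited raw counts per TempO-Seq detector probe for 105 libraries, with no normalization; the submitters' processing notes name FastQC, Bowtie, R 3.5.3 and DESeq2 1.28.1 without roles, and the build is not given in the sources used here. Members and gene lists were chosen with earlier results of these data known. Counts were tested with edgeR 4.0.16 in R 4.3.3: filterByExpr (minimum count 10, minimum total 15), TMM factors, robust dispersions, glmQLFit and glmQLFTest, with Benjamini-Hochberg adjustment over all probes kept and calls at an adjusted p under 0.05. Each nitroalkane was fitted at 8 concentrations with 1 control (27 libraries), for medium and DMSO apart; reference compounds and controls of a set were fitted together. Standard errors are the absolute log2 change over the square root of F, and 95% intervals use the normal quantile. Such intervals are narrower than the F test implies, and some that exclude 0 belong to members with an unadjusted p above 0.05. On simulated counts for NE at 10 mM against medium (12339 probes), 13.6%, 53.8% and 84.6% of probes changed 1.5-fold, 2-fold and 4-fold were called, with 5 false calls of 104. Far fewer probes were changed there than were called in the data (4197), so these shares may not hold for the data. The named members are, in each comparison, up to 8 in each direction that were called, had a mean of at least 10 CPM and did not overlap between groups, plus the most abundant probe of each role; members outside this rule were named after their values were seen. Libraries of a group always differed beyond counting noise (smallest chi-square per degree of freedom 2.88).

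Replicate numbers are shared by groups of set 1 and by the controls and WY-14643 of set 2. Deviations of same-numbered libraries correlated above 0.1 in all 3 pairs for 4 of 26 comparisons, namely BAP against DMSO and CITCO at 10 µM, rifampin at 20 µM and WY-14643 of set 1 against medium, where the number is also the plate column. Alternatives tried were DESeq2 1.42.0, its size factors, no filter on low counts, the replicate block, the other control and leaving out each library.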

Additional observations from a re-analysis of the deposited data

Results flagged for a closer look

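Sec31b, an outer-coat subunit of COPII, differed between the sets in its medium to DMSO contrast. The log2 difference of medium less DMSO was larger in set 2 than in set 1 by 2.37 ± 0.54 (edgeR adjusted p = 0.0406), at 1.80 ± 0.47 in set 2 and -0.57 ± 0.40 in set 1, which did not pass the test on its own. The probe lay at 1.03 to 5.23 CPM in these 12 libraries.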

How the results depend on the processing

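The count of members called with NE at 10 mM was 27 to 34 against medium (30) and 18 to 27 against DMSO (21) when each library was left out, and none of the 148 calls of single members changed sign under the alternatives run. With each library left out, counts ran as follows, main count in brackets. NE at 3 mM had 14 to 26 against medium (22) and 3 to 7 against DMSO (11), and NM at 3 mM had 1 to 2 against medium (3). NM at 10 mM had 0 to 1 (0) and 2 to 3 (2) against medium and DMSO, and 1NP had 0 to 28 (19) and 0 to 2 (0). Sums over the 7 lower concentrations were 1 (3), 14 to 16 (22) and 0 to 11 (0) against medium for NM, NE and 1NP, and 4 to 14 (20), 4 to 6 (18) and 5 to 6 (11) against DMSO. NE less NM had 2 to 24 at 10 mM (16) and 0 to 7 at 3 mM (0), and 1NP less NE 0 to 11 (0). BAP had 0 to 3 against DMSO (2) and 7 to 11 against medium (12), CITCO at 10 and 20 µM 2 to 3 (4) and 12 to 19 (17) against medium, rifampin at 20 µM 1 to 3 against DMSO (3) and at 40 µM 1 to 3 against medium (3). WY-14643 had 3 to 18 against DMSO (15) and 1 to 7 against medium (1) in set 1, and 5 to 23 against medium (12) in set 2, while medium against DMSO had 6 to 8 (8) and 13 to 27 (23) in the 2 sets.

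With DESeq2 the count became 4 for NM at 10 mM against DMSO, 3 for it against medium, 1 for 1NP at 10 mM against DMSO, 2 for NE less NM at 3 mM, 6 and 1 for rifampin at 20 µM against DMSO and medium, and 2 and 5 at 40 µM. The sums over lower concentrations became 35 for NM and 30 for NE against DMSO, and 7 for 1NP against medium. Without a filter on low counts they became 2 for NM against DMSO, and 0, 35 and 47 against medium for NM, NE and 1NP, NM at 3 mM had 0, rifampin at 40 µM had 5 against DMSO, and WY-14643 of set 1 had 3 against medium. With DESeq2 size factors in edgeR, CITCO at 10 µM had 2 against medium. The cause of these shifts was not tested.

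With the replicate block, the count was 9 for NE less NM at 10 mM, 6 for rifampin at 20 µM and 1 at 40 µM against DMSO, and 2 for WY-14643 of set 1 against medium, and in the other comparisons with shared numbers it stayed within 1.5 times. Same-numbered libraries correlated at -0.52 to 0.60 and 38 of 78 pairs correlated best with their own number. No paired analysis was possible for 1NP, because its wells and controls share no number. Of 148 calls of single members, 549 of 582 checks under other settings kept the call, and 635 of 888 did when a library was left out. Simulated 1.5-fold changes were mostly missed. The simulation called 104 probes where the data had 4197 called, so this share may not hold for the data.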

Other observations

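Replicate 3 of NM at 10 mM and replicate 1 of NM at 3 mM were low in the same members, with Sec61g at 23.43 and 42.96 CPM, Tmed5 at 32.4 and 32.4 CPM and Sec61a1 at 2.34 and 4.67 CPM, and both were high in a Tram2 probe, at 67.0 and 96.6 CPM. BAP replicate 3 and CITCO 20 µM replicate 1 were low in Spcs3, at 4.82 and 5.85 CPM. Replicate 3 of NE at 0.01 mM had Kdelr2 at 326.3 CPM and Pdia6 at 257.1 CPM, while its median member stood 0.31 below medium on the log2 scale.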
